A study of Mus musculus with 6 samples.

Results

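The genes described here are those of respiratory complex I, taken as every row of the normalized count table whose symbol begins with Nduf, without symbols that end in -ps. The rule found 45 genes among 38720 rows. All 45 stood at 10 or more normalized counts in all 6 libraries, so none was lost to the filter on low values, which 17432 genes passed. By symbol, 38 were subunits and 7 were assembly factors (Ndufaf). The subunit group includes Ndufa4, which is a subunit of complex IV, and its paralogue Ndufa4l2, and 36 genes remain without that pair. Subunit Ndufb1 was not analysed here.

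The study compared CLDN18-/- mice with CLDN18+/+ wild-type mice, all of the B6:129S5 strain. Claudin 18 seals tight junctions between cells of the gastric lining. Stomachs were frozen unfixed, and the neck region of the corpus glands was cut out by laser capture microdissection, so a library holds RNA of every cell type in that region. There were 3 Cldn18 knockout and 3 wild-type libraries, with no treatment. The labels give an age of 7 weeks and the design text of the series gives 7 days, so the age is uncertain. How the allele was made is not stated, and neither is whether each library came from its own animal. The p-values therefore measure the spread between these libraries, which may be technical.

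Complex I, NADH:ubiquinone oxidoreductase, takes electrons from NADH, passes them to ubiquinone along a chain of iron-sulfur clusters and pumps protons across the inner mitochondrial membrane. Its peripheral arm holds the N module, where NADH is oxidized, and the Q module, where ubiquinone is reduced, and its membrane arm pumps the protons. Most subunits are encoded in the nucleus, the hydrophobic core of the membrane arm is encoded by the mitochondrial genome, and assembly factors help to build the enzyme without staying in it. In the corpus, the acid-secreting parietal cells are known for their dense content of mitochondria.

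The libraries held 37673283 to 52842813 reads on genes, and the 45 genes had 17 to 10308 reads each in a library. A single locus, Gm26924, took 38.6% to 45.4% of reads. Cldn18 itself had 13035, 16798 and 15818 normalized counts in the knockout libraries, against 30498, 21210.1 and 23241 in the wild-type libraries (log2 difference -0.71 ± 0.20 SE, limma adjusted p = 0.0134). Cldn18 was thus lower in the group labelled knockout, as were 21.5% of all tested genes. Reads were counted over the full gene, with the deleted stretch unknown here, so these values alone cannot show which group is the knockout. Processed pseudogenes took 0.104% to 0.118% of reads in the knockout libraries, against 0.144%, 1.07% and 0.530% in wild-type libraries 1, 2 and 3, so wild-type libraries 2 and 3 stood apart.

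Complex I subunit genes fell in the knockout, and most assembly factor genes did not pass the test. A gene was called at a limma adjusted p under 0.05, computed over all 17432 tested genes on log2(normalized count + 1). Of the 38 subunits, 36 were lower, 0 were higher and 2 (Ndufs4 and Ndufs5) were not called, against a background of 21.5% of all tested genes lower and 23.3% higher. Of the 7 Ndufaf genes, 1 (Ndufaf3) was lower and 6 were not called, and of all 17432 tested genes 9636 were not called. The median log2 difference was -0.95 over the subunits and -0.20 over the Ndufaf genes, against -0.02 over all tested genes. The median subunit stood at 51.5% of its wild-type mean and the median Ndufaf gene at 86.6%. For 36 of 38 subunits and 2 of 7 Ndufaf genes, all 3 knockout values lay below all 3 wild-type values, against 27.1% of all tested genes, and for 0 of the 45 did they lie wholly above, against 28.1%. A call with a decrease of at least 1 on the log2 scale was seen in 16 subunits and 0 Ndufaf genes. Under the same rule of adjusted p and size, it was seen in 15.1% of all tested genes. Without wild-type libraries 2 and 3, an alternative added once the data had been seen, 36 of 38 subunits and 1 of 7 Ndufaf genes were lower, against 14.3% of all tested genes. In tissue RNA, fewer cells of a type and less RNA per cell cannot be told apart.

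**Figure D1:**
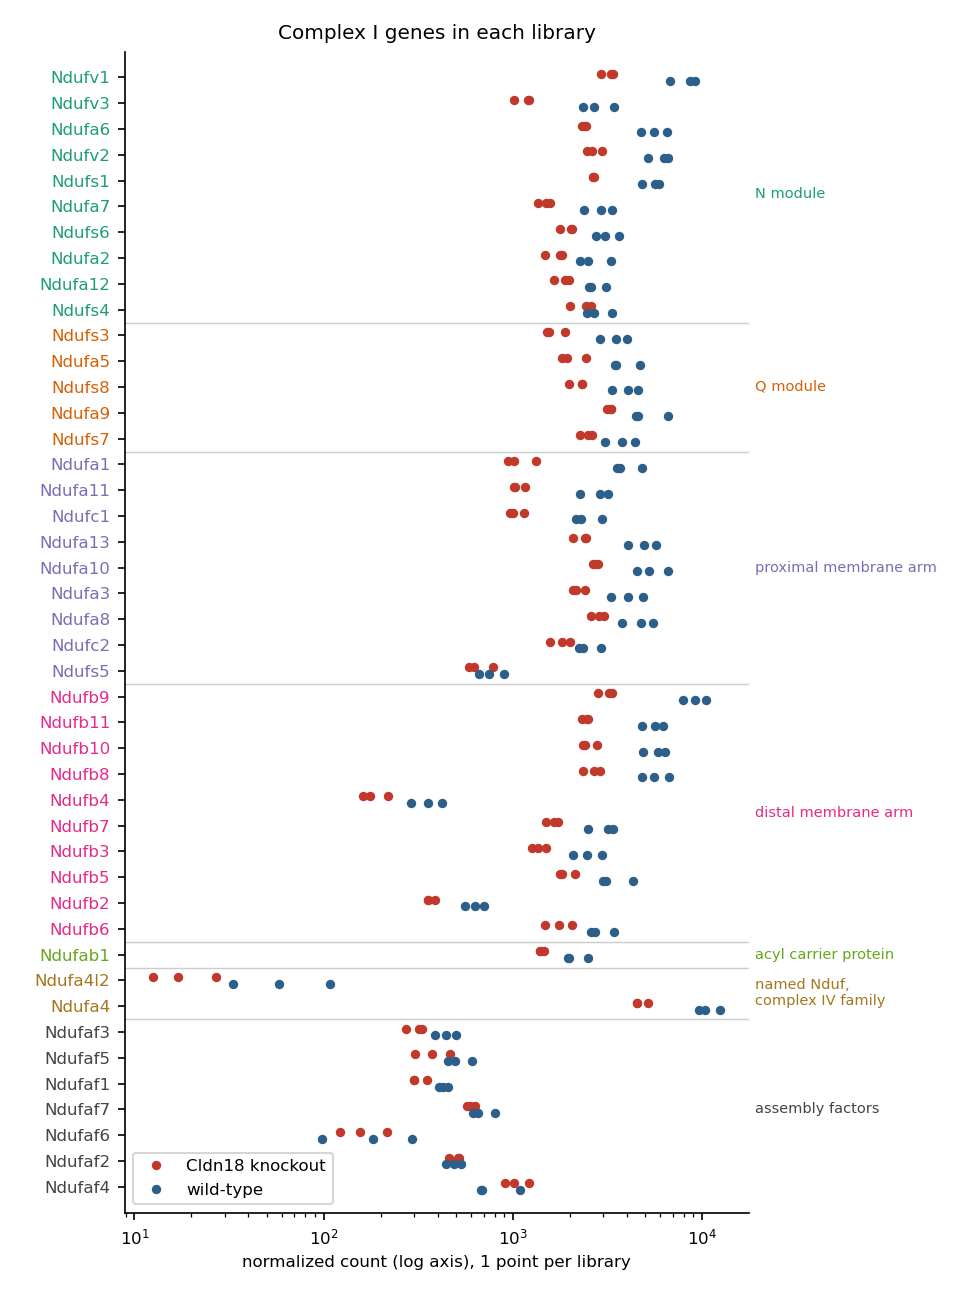
Normalized count of each of 44 of the 45 genes on a log axis, with 1 point per library, knockout in red just above wild-type in blue, grouped by place in the enzyme and ordered by log2 difference within a group. The knockout points lie left of the wild-type points for 35 of the 37 subunits drawn, while the Ndufaf genes at the bottom mostly overlap.

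In the N module, 9 of 10 genes were lower, with a median log2 difference of -0.99. Ndufv1, which binds NADH and the flavin cofactor, lies at chr19:4007384-4012806 on the minus strand of mm10. It had 3381, 2937 and 3294 normalized counts in the knockout libraries, against 8616, 9216 and 6773 in the wild-type libraries. The knockout mean was 39.1% of the wild-type mean, and the groups were far apart (log2 difference -1.35 ± 0.15 SE, adjusted p = 7.02e-05). Ndufv2, a partner of Ndufv1 that carries an iron-sulfur cluster, had 2954, 2473 and 2636 in the knockout, against 6629.6, 6288 and 5209 in wild-type (-1.16 ± 0.15 SE, adjusted p = 0.000125). Ndufs1, the large iron-sulfur subunit of the module, had 2652, 2699 and 2645 in the knockout, against 5617, 5892 and 4797 in wild-type. Its knockout values had the smallest spread of the 45 genes relative to the mean (2665 ± 29.2, SD, n = 3), and its log2 difference was -1.02 ± 0.13 (SE, adjusted p = 0.000164).

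The accessory subunits of the N module spanned a wide range. Ndufv3 stood at 40.6% of its wild-type mean and Ndufa6, which anchors the acyl carrier protein, at 42.6%. Ndufa7 stood at 51.3%, Ndufs6, a zinc-binding subunit, at 61.8%, and the thioredoxin-like Ndufa2 at 62.9%, and all of these were called lower. Ndufa12 had 1970.1, 1647 and 1876 normalized counts in the knockout libraries, against 3112, 2576 and 2514 in the wild-type libraries (log2 difference -0.58 ± 0.14 SE, adjusted p = 0.00744). It was among the 3 smallest decreases of the called subunits, and its groups did not overlap. Ndufs4, whose loss in mice gives a fatal brain disease, had 2594, 2016 and 2440.3 in the knockout, against 3336, 2678 and 2455 in wild-type. Here the highest knockout library lay above the lowest wild-type library, and the log2 difference of -0.26 ± 0.16 (SE, adjusted p = 0.214) had a 95% interval of -0.61 to 0.09. That interval does not reach the median of the module.

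In the Q module, 6 of 6 genes were lower, with a median log2 difference of -0.88. Ndufs7, which carries the last iron-sulfur cluster of the chain, had 2612, 2262 and 2489 normalized counts in the knockout libraries, against 4438, 3769 and 3062 in the wild-type libraries (log2 difference -0.60 ± 0.16 SE, adjusted p = 0.0103), at 65.3% of the wild-type mean. Ndufs3, a core subunit at the base of the arm, had 1883, 1554 and 1516 in the knockout, against 3992, 3503 and 2888 in wild-type (-1.06 ± 0.16 SE, adjusted p = 0.000411). Ndufs8, which carries iron-sulfur clusters, had 2329.9, 1976 and 2312 in the knockout, against 4600.1, 4076 and 3333 in wild-type (-0.85 ± 0.15 SE, adjusted p = 0.00128). None of these groups overlapped. The accessory subunits Ndufa5 and Ndufa9 stood at 53.2% and 62.3% of their wild-type means, and both were called lower.

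In the proximal part of the membrane arm, 8 of 9 genes were lower, with a median log2 difference of -0.98. It held the gene with the largest decrease among the 45. Ndufa1, a small membrane-spanning subunit encoded on the X chromosome (mm10 chrX:37187588-37191163, minus strand), had 1323, 947 and 1011 normalized counts in the knockout libraries, against 4834, 3673 and 3546 in the wild-type libraries. The highest knockout library was far below the lowest wild-type library, and the knockout mean was 27.2% of the wild-type mean (log2 difference -1.88 ± 0.17 SE, adjusted p = 1.87e-05). Ndufa11, a membrane-spanning subunit (chr17:56717767-56722141, plus strand), had 1026, 1017 and 1164 in the knockout, against 3167, 2872 and 2276 in wild-type (-1.36 ± 0.15 SE, adjusted p = 6.75e-05).

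The other genes of the proximal membrane arm had smaller differences. Ndufc1 stood at 42.1% of its wild-type mean, Ndufa13 (GRIM-19) at 47.1%, Ndufa10, of the nucleoside kinase family, at 49.9%, Ndufa3 at 54.2% and Ndufa8 at 60.6%, and all of these were called lower. Ndufc2 had 2014, 1812 and 1563 normalized counts in the knockout libraries, against 2937, 2354 and 2239 in the wild-type libraries. This was the smallest called decrease of a subunit (-0.48 ± 0.16 SE, adjusted p = 0.0281), and it lost its call in 7 of the alternatives. Ndufs5, which faces the intermembrane space, had 788, 585 and 622 in the knockout, against 903, 746 and 660.3 in wild-type. The groups overlapped (-0.21 ± 0.18 SE, adjusted p = 0.368, 95% interval -0.61 to 0.19).

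The call for Ndufs5 changed when the values of a near-identical gene copy were added. BC002163, a processed pseudogene on another chromosome, matches the coding sequence of Ndufs5 at 99.4% over 319 bases, with 2 mismatches. Counted from 1 at the first base of the Ndufs5 start codon, the differences were T81C and A105G, with the Ndufs5 base first. The stretch that holds both, coding positions 66 to 120 of the GENCODE vM21 transcripts (mm10), is shown with the mismatched bases in capitals, since reads from the rest of the match fit both genes alike.
Ndufs5 (chr4:123712710-123718202, minus strand): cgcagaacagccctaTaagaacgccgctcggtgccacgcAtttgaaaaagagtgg
BC002163 (chr16:42955631-42955949, plus strand): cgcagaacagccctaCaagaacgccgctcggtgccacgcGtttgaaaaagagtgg
The coordinates are those of the whole genes. The copy had 48.2, 22.9 and 35.6 normalized counts in the knockout libraries, against 1053, 850 and 723 in the wild-type libraries (-4.63 ± 0.30 SE, adjusted p = 1.7e-06). In wild-type the pseudogene row held 109.6% to 117% of the value of the Ndufs5 row, and in the knockout it held 3.91% to 6.12%. Added together, the 2 rows gave 836, 608 and 657 in the knockout, against 1956, 1595 and 1384 in wild-type, and these groups did not overlap. The sum fell to 42.6% of its wild-type mean (-1.23 ± 0.18 SE, adjusted p = 0.000337). Adding the copy was an alternative chosen once the data had been seen. How reads that fit both genes were counted is not stated, so which of the rows holds the reads of Ndufs5 was not tested.

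A near-identical processed pseudogene (at least 95% identity over at least 200 bases) was found for 9 of the 45 genes, and for 6 of them the copy was a row of the table. Beside Ndufs5, the log2 difference changed most for Ndufa12 when the copy was added. Its copy Gm15920 had 159, 110.1 and 148 normalized counts in the knockout libraries, against 648, 608 and 453 in the wild-type libraries, and the sum of the rows had a log2 difference of -0.74 ± 0.14 (SE, adjusted p = 0.00194), against -0.58 for Ndufa12 alone. For Ndufab1, Ndufb11, Ndufb2 and Ndufs3, the log2 difference with the copy added was -0.63, -1.20, -0.78 and -1.09, against -0.60, -1.19, -0.78 and -1.06 for the gene alone. The copies of Ndufb3, Ndufb4 and Ndufs6 were not analysed here. That of Ndufb4 matched it at 100% over 390 bases, and how reads that fit both were counted is not stated. Ndufs4, the other subunit that was not called, had no such copy.

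**Figure D2:**
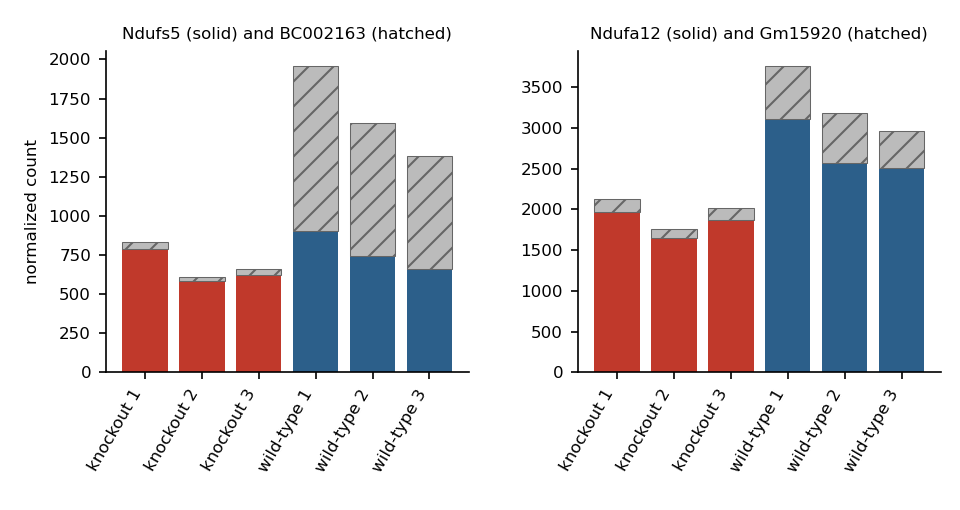
Normalized count of Ndufs5 with its pseudogene copy BC002163 (left) and of Ndufa12 with Gm15920 (right) in each library, the gene solid and the copy hatched on top. The hatched part of the left panel is 23 to 48 in the knockout libraries and 723 to 1053 in the wild-type libraries.

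In the distal part of the membrane arm, 10 of 10 genes were lower, with a median log2 difference of -0.91. Ndufb9, a small subunit of the LYR family (mm10 chr15:58933756-58939488, plus strand), had 3346, 2835 and 3219.8 normalized counts in the knockout libraries, against 10477, 9181 and 7895 in the wild-type libraries. Its knockout mean was 34.1% of the wild-type mean, with groups far apart (-1.54 ± 0.15 SE, adjusted p = 2.48e-05). Ndufb11, which like Ndufa1 is encoded on the X chromosome, stood at 43.5%, the disulfide-bearing Ndufb10 at 44.0% and Ndufb8 at 46.4%. Ndufb4 at 51.7%, Ndufb7 at 53.7%, Ndufb3 at 54.9%, Ndufb5 at 54.9%, Ndufb2 at 57.9% and Ndufb6 at 60.5% kept more. Ndufb4, which has the identical copy described above, had low counts of 161 to 218 in the knockout and 291 to 425 in wild-type. Its groups did not overlap.

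The remaining 3 genes with subunit symbols fell as well. Ndufab1, the mitochondrial acyl carrier protein, which also serves fatty acid synthesis, had 1390.2, 1454 and 1396 normalized counts in the knockout libraries, against 2489.8, 1965 and 1991 in the wild-type libraries (-0.60 ± 0.14 SE, adjusted p = 0.00568). Ndufa4, the complex IV subunit, had 5183, 4557 and 4514 in the knockout, against 12510.0, 10407 and 9587 in wild-type (-1.18 ± 0.15 SE, adjusted p = 0.000147). Its paralogue Ndufa4l2, a hypoxia-inducible gene, had 17.0, 12.6 and 26.9 in the knockout, against 108, 58.0 and 33.0 in wild-type. Ndufa4l2 had the lowest level per kilobase of exon and the widest interval of the 45 genes (-1.67 ± 0.53 SE, 95% interval -2.84 to -0.50, adjusted p = 0.0250), and it lost its call in 5 of the alternatives. These were the fits without knockout library 1, knockout library 2 or wild-type library 1 (adjusted p = 0.0682, 0.0831 and 0.0906), quantile normalization (adjusted p = 0.183) and the authors' deposited table (adjusted p = 0.136). Its knockout and wild-type extremes, 26.9 and 33.0, nearly touched.

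**Figure D3:**
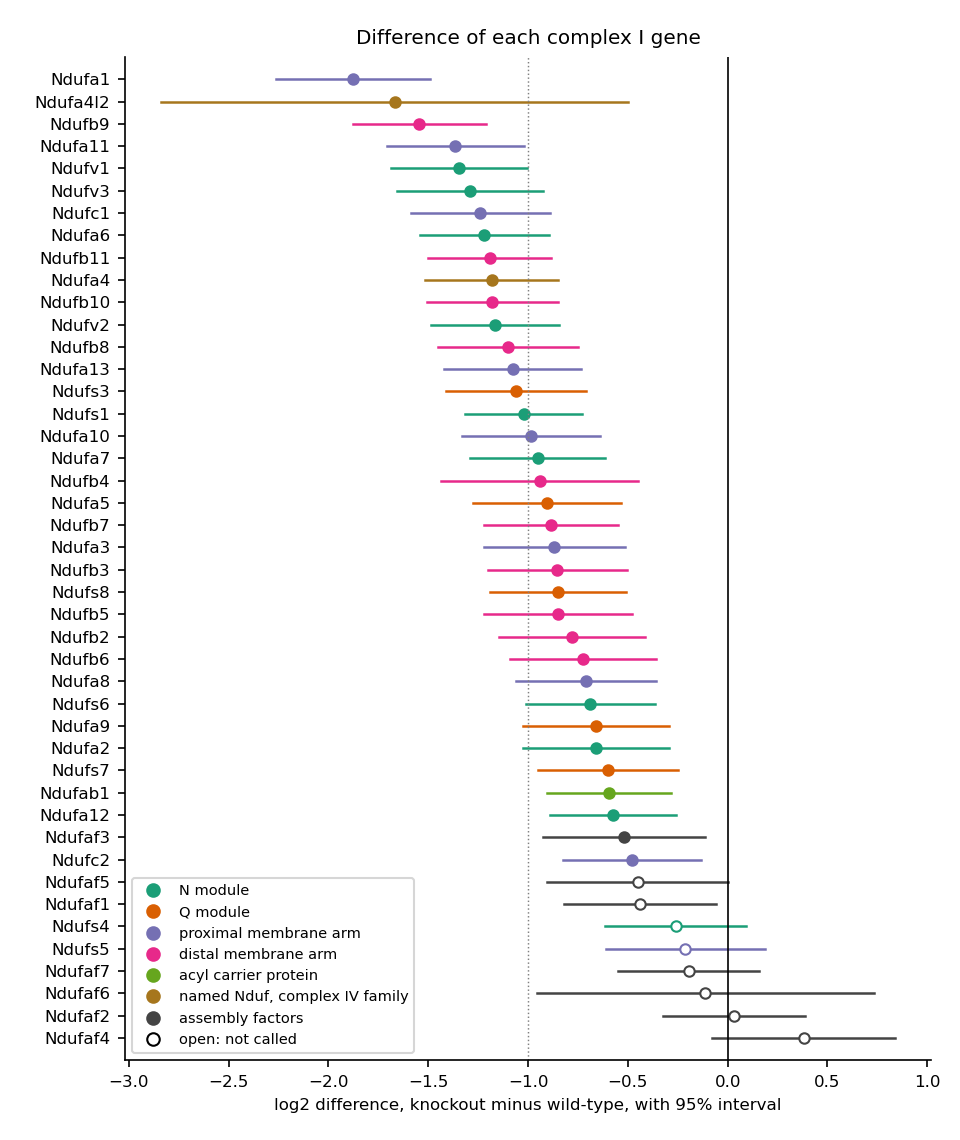
Log2 difference (knockout minus wild-type) of each of 44 of the 45 genes with its 95% interval, ordered from the largest decrease at the top, coloured by place in the enzyme, with open circles for genes not called. The genes run from Ndufa1 at -1.88 to Ndufaf4 at 0.38, and 7 of the lowest 10 on the page are Ndufaf genes.

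Among the Ndufaf genes 1 passed the test. Ndufaf3 and Ndufaf4 bind each other and act early, on the Q module. Ndufaf3 had 332, 274 and 320.1 normalized counts in the knockout libraries, against 503, 441 and 389 in the wild-type libraries, and it was the only Ndufaf gene called (-0.52 ± 0.18 SE, adjusted p = 0.0397). Its groups did not overlap, but the call was lost when any 1 of 5 of the 6 libraries was left out (adjusted p = 0.0632 to 0.131). Ndufaf4 had 1222, 1009.9 and 905 in the knockout, against 1087, 682 and 684 in wild-type. It had the highest difference of the 45 genes (0.38 ± 0.21 SE, adjusted p = 0.161, 95% interval -0.08 to 0.84), and wild-type library 1 lay within the knockout values. Without that library it was called higher (0.60, adjusted p = 0.0119).

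The other Ndufaf genes were not called, and the larger differences among them were decreases. Ndufaf1, part of the complex that assembles the membrane arm, had 301, 350.2 and 301 normalized counts in the knockout libraries, against 455, 405 and 429 in the wild-type libraries. Its groups did not overlap, yet it did not pass the test (-0.44 ± 0.17 SE, adjusted p = 0.0598). Ndufaf5, which modifies an arginine of Ndufs7, had 465, 374 and 304 in the knockout, against 605, 493 and 453 in wild-type (-0.45 ± 0.20 SE, adjusted p = 0.0977). Ndufaf7, an arginine methyltransferase, had 635, 593 and 574 in the knockout, against 801, 617 and 657 in wild-type (-0.20 ± 0.16 SE, adjusted p = 0.347). The groups of both overlapped. Ndufaf6, needed early in assembly, had 217, 156 and 122 in the knockout, against 97.9, 291 and 183 in wild-type, where the wild-type values spanned those of the knockout (-0.11 ± 0.38 SE, adjusted p = 0.836). Ndufaf2, a paralogue of Ndufa12 that holds its place during assembly, had 517, 515 and 460.4 in the knockout, against 530.0, 445 and 488 in wild-type (0.03 ± 0.16 SE, adjusted p = 0.896). The subunit Ndufa12 and its paralogue Ndufaf2 thus had differences of -0.58 and 0.03. Ndufaf8, listed under its older symbol 1810043H04Rik and outside the 45 genes for that reason, had 471, 445 and 405 in the knockout, against 450.5, 354 and 358 in wild-type (0.19 ± 0.18 SE, adjusted p = 0.418).

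Most genes listed as complex I assembly factors under other names were not called. Of 12 measured, 2 were lower, 0 were higher and 10 were not called, with a median log2 difference of -0.20. The background was 21.5% of all tested genes lower and 23.3% higher, with 9636 of 17432 not called. The 2 called were Atp5sl (current symbol Dmac2), which acts on the distal membrane arm, and its paralogue Atp5s (current symbol Dmac2l). A role of Atp5s in complex I assembly was not tested here. Atp5sl had 490.2, 456 and 432 normalized counts in the knockout libraries, against 1198, 1013 and 1119.6 in the wild-type libraries (-1.27 ± 0.15 SE, adjusted p = 7.93e-05), a difference in the range of the subunits. Atp5s had 107, 123 and 89.4 in the knockout, against 223, 188 and 236 in wild-type (-1.02 ± 0.24 SE, adjusted p = 0.00612). Acad9 and Ecsit, the partners of Ndufaf1, had differences of -0.18 and -0.07 and were not called.

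Most subunits encoded by the mitochondrial genome fell. Of 6 tested, 5 (mt-Nd1, mt-Nd2, mt-Nd4, mt-Nd5 and mt-Nd6) were lower, against 21.5% of all tested genes, with log2 differences of -2.23 to -1.86. Of the nuclear subunits, Ndufa1 alone lay in that range. For example, mt-Nd1 had 50221, 45698 and 43586 normalized counts in the knockout libraries, against 201918, 147324 and 186921 in the wild-type libraries (-1.93 ± 0.28 SE, adjusted p = 0.000325). The whole mitochondrial genome, these genes included, took 1.25% to 1.56% of reads in the knockout libraries and 3.28% to 4.28% in the wild-type libraries. The exceptions to the decrease were the 2 shortest genes. mt-Nd3 had 127, 66.5 and 71.1 in the knockout, against 4.90, 9.88 and 2.91 in wild-type, and was called higher (3.76 ± 0.56 SE, adjusted p = 0.000385) at a level per length far below those of the 5 genes that fell. mt-Nd4l had 11.3, 4.43 and 4.81 in the knockout, against 0, 2.47 and 0.971 in wild-type, and was below the filter. The cause of the low counts of both rows was not tested.

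Library by library, the 38 subunit genes summed to 84130, 73723 and 78181 normalized counts in the knockout, against 181681, 157568 and 134923 in wild-type. The Ndufaf genes summed to 3689, 3272 and 2986 in the knockout, against 4079, 3374 and 3284 in wild-type. The ratio of the sums was 22.8, 22.5 and 26.2 in the knockout libraries, against 44.5, 46.7 and 41.1 in the wild-type libraries, so no knockout library reached any wild-type library. The genes also moved together among replicates. Wild-type library 1 was the highest of its group for 35 of 38 subunits and wild-type library 3 the lowest for 36. Knockout library 1 was the highest of its group for 30. Relative to the wild-type mean, the median log2 level of subunits was 0.24, -0.01 and -0.22 in wild-type libraries 1, 2 and 3. Over all tested genes it was 0.08, -0.01 and -0.08, a shift in the same order. Genes that share a library share its scaling and its cell composition, so they are not independent of each other.

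**Figure D4:**
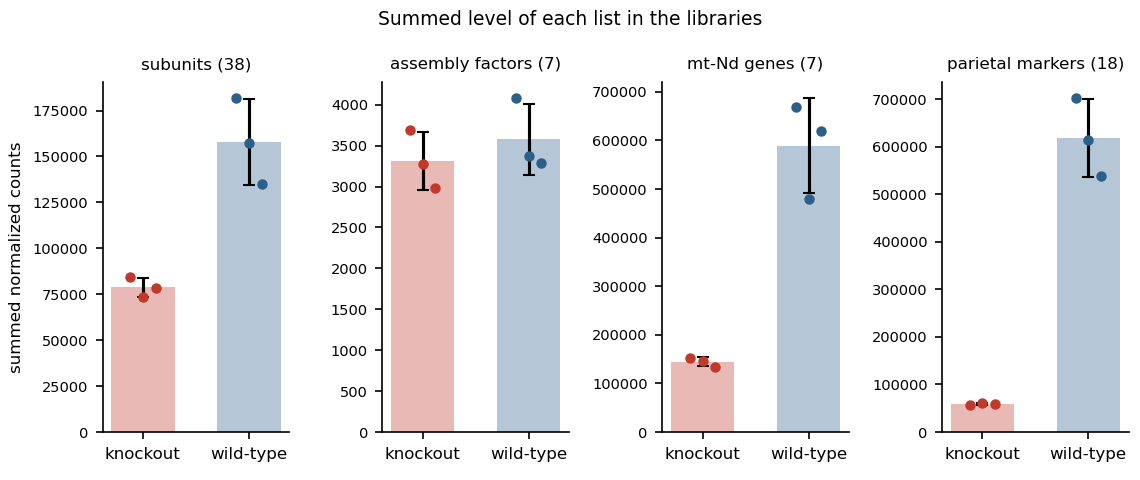
Summed normalized counts of the 38 subunit genes, the 7 Ndufaf genes, the 7 mt-Nd genes and the 18 parietal cell markers, with 1 point per library, bars at the mean of the 3 knockout (left) or 3 wild-type (right) libraries and error bars of 1 SD. The groups are apart in each panel except that of the Ndufaf genes, where they overlap.

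Markers of cell types moved with the same comparison, in which 21.5% of all tested genes were lower and 23.3% higher. Of 18 parietal cell markers 17 were lower, with a median log2 difference of -3.75, and they summed to 56946 to 61626 normalized counts in the knockout libraries and 539022 to 702047 in the wild-type libraries. None of these, or of the markers in the lists that follow, was at 0 in all libraries of a group. The proton pump gene Atp4a had 1175, 5217 and 2094 in the knockout, against 307686, 283956 and 239137 in wild-type, and its partner Atp4b had 821, 2539.9 and 1059 in the knockout, against 175074, 153282 and 131823 in wild-type. Of 6 chief cell markers tested 6 were lower, and the 7 in the table summed to 39929.6 to 74340.1 in the knockout libraries and 1815250 to 3011634 in the wild-type libraries. Of 14 cell cycle markers 14 were higher, and they summed to 47311 to 60306 in the knockout and 16735 to 18931 in wild-type, with Mki67, a marker of cycling cells, at 13979, 15771 and 11083 in the knockout, against 5851, 3429 and 4373 in wild-type. Of 6 mucous neck cell markers 4 were higher and 1 was lower (median log2 difference 3.13), and they summed to 90221 to 187946 in the knockout and 76629 to 99006 in wild-type, where the ranges overlap. Those higher were Gkn3, Aqp5, Cftr and Dmbt1, while Muc6 was lower and Tff2 was not called. Of 8 endothelial markers 8 were lower (median -1.39), and they summed to 3357 to 4444 in the knockout and 8770.2 to 14052 in wild-type. Of 8 surface and pit cell markers 4 were lower and 1 was higher (median -0.94), with sums of 337683 to 584793 in the knockout and 884135 to 1498873 in wild-type. Of 6 leukocyte markers tested 3 were higher and 0 lower (median 0.84), and the 8 in the table summed to 2934 to 5872 in the knockout and 1614 to 2229 in wild-type. Of 8 fibroblast markers 3 were higher and 0 lower (median 0.24), and of 8 smooth muscle markers 4 were lower and 0 higher (median -0.32). The sums of both lists overlapped between the groups, at 27610.5 to 48874 in the knockout and 23270.2 to 38865 in wild-type for fibroblasts, and at 8795 to 10441 in the knockout and 9976 to 14143 in wild-type for smooth muscle. The part of these marker changes in the complex I result was not tested.

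Subunit genes of the other respiratory complexes fell with those of complex I. The background was 21.5% of all tested genes lower and 23.3% higher. Of 39 nuclear subunits of complexes II to V, 35 were lower, 0 were higher and 4 were not called, with a median log2 difference of -0.79. Of 25 assembly factors of complexes III to V, 8 were lower, 2 were higher and 15 were not called, with a median of -0.22. Of 21 genes of mitochondrial import, channels and chaperones, 8 were higher, 2 were lower and 11 were not called, with a median of 0.29. Among these, Hspd1, the mitochondrial chaperonin, had 15265, 14803 and 15887 normalized counts in the knockout libraries, against 6112, 5235 and 4664 in the wild-type libraries (1.53 ± 0.15 SE, adjusted p = 2.72e-05). Chchd4, which oxidizes cysteines of proteins imported into the intermembrane space, was higher (0.86 ± 0.16 SE), while its partner Aifm1 was lower (-0.79 ± 0.15 SE). These lists were chosen with earlier results of these data known.

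**Figure D5:**
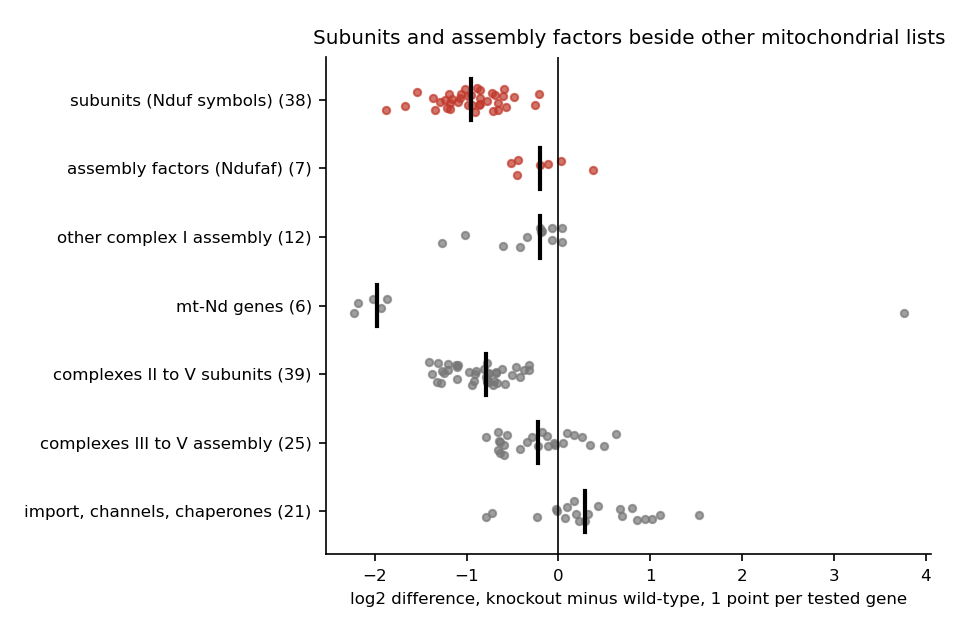
Log2 difference (knockout minus wild-type) of each tested gene in 7 lists of mitochondrial genes, 1 point per gene, with a vertical bar at the median of the list and the number of genes in parentheses. The medians lie at -0.95 for complex I subunits, -0.20 for Ndufaf genes, -0.79 for complexes II to V and 0.29 for import, channel and chaperone genes, and the lone point near 3.8 is mt-Nd3.

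Regulators known to act on respiratory chain genes moved in both directions. Esrrg, a nuclear receptor that binds ERR response elements, had 717, 1262 and 777 normalized counts in the knockout libraries, against 12357, 10545 and 10133 in the wild-type libraries (-3.62 ± 0.21 SE, adjusted p = 8.11e-07). Its coactivator Ppargc1a had 135, 189 and 112 in the knockout, against 1219, 1587 and 1330.3 in wild-type (-3.26 ± 0.22 SE, adjusted p = 2.05e-06). Both had groups far apart, and Esrrg is also counted among the 18 parietal cell markers above. Esrra, the related receptor, was lower by much less, at 2966, 2253 and 2727 in the knockout, against 4199, 4657 and 3753 in wild-type (-0.67 ± 0.15 SE, adjusted p = 0.00451). Of the 11 regulators tested, 6 were lower and 3 were higher, against 21.5% of all tested genes lower and 23.3% higher. Not all of those lower are named here, and the largest decrease, at -5.98, exceeded that of Esrrg. Those higher were Nrf1 (0.66 ± 0.14 SE), Gabpa (0.65 ± 0.14 SE) and Pprc1 (1.21 ± 0.13 SE), while Tfam and Yy1 were not called.

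The promoters of the genes were searched for the short motifs of these factors. RefSeq windows of 300 bases (250 before and 50 after the start, GRCm38.p6) were held for 39 of the 45 genes, 33 subunits and 6 Ndufaf genes, and both strands were read. The NRF1 motif, GCGCANGCG, was in 8 of 33 subunit genes (24.2%) and 2 of 6 Ndufaf genes, against 7.03% of all 27025 genes with a window. The YY1 motif, AAGATGGCG, was in 5 of 33 subunit genes (15.2%) and 0 of 6 Ndufaf genes, against 1.64% of all genes with a window. The ERR response element, TNAAGGTCA, was in 1 of 33 (Ndufb4), against 1.43%, and the GABPA motif, CCGGAAGTG, was in 1 of 33 (Ndufs3), against 2.25%. Matches of the palindromic NRF1 motif on the 2 strands overlap, and a gene with any match in any window was counted once. Motif matches describe letters, not binding.

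The 250 bases before the start are shown for 5 genes, with motif matches in capitals. Ndufa1 had the largest decrease and no match, and Ndufa11 a large decrease with an NRF1 match. Ndufb4 held the ERR response element beside 3 NRF1 matches, Ndufs5 was not called on its own row, and Ndufaf4 was the gene with the highest difference.
Ndufa1 (chrX:37191239-37191488, minus strand): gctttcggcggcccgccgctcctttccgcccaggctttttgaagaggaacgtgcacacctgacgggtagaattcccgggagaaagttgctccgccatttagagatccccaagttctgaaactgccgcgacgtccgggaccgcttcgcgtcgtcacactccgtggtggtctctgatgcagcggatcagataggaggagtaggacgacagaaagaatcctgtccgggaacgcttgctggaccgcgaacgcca
Ndufa11 (chr17:56717512-56717761, plus strand): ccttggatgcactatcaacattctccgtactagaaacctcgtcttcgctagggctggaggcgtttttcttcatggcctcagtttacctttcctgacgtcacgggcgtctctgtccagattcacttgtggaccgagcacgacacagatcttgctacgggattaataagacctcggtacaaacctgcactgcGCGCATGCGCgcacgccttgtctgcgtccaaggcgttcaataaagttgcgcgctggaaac
Ndufb4 (chr16:37654369-37654618, minus strand): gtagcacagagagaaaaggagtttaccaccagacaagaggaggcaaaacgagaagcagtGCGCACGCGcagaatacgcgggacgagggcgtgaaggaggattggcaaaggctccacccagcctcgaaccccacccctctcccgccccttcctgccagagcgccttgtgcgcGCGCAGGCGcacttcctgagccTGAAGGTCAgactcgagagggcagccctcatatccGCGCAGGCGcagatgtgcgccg
Ndufs5 (chr4:123718187-123718436, minus strand): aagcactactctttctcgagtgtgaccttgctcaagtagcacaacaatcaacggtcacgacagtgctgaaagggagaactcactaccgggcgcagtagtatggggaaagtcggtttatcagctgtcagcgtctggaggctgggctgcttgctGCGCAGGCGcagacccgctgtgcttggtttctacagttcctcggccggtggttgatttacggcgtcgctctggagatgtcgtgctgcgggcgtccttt
Ndufaf4 (chr4:24897833-24898082, plus strand): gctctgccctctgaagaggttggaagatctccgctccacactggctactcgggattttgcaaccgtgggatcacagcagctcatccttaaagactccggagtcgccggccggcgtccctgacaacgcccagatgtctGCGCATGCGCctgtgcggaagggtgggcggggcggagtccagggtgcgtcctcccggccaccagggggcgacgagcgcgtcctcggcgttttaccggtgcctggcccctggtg
The NRF1 match of Ndufaf4, at a difference of 0.38 and not called, reads the same as that of Ndufa11, which fell by 1.36 on the log2 scale. The 5 YY1 matches lay just after the transcription start, with their first base 23 to 36 bases from it, and are shown with their flanks. Each match holds the letters ATG, and whether it spans the start codon of the protein was not tested.
Ndufa9 (chr6:126849096-126849125, minus strand): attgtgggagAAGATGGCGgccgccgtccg
Ndufc1 (chr3:51408914-51408943, minus strand): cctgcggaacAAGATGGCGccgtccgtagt
Ndufs4 (chr13:114388045-114388074, minus strand): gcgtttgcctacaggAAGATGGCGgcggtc
Ndufs6 (chr13:73328433-73328462, minus strand): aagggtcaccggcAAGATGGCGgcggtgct
Ndufs7 (chr10:80249463-80249492, plus strand): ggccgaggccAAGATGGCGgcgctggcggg
Genes with this match included Ndufc1 at a log2 difference of -1.24, Ndufs6 at -0.69, Ndufa9 at -0.66, Ndufs7 at -0.60 and Ndufs4 at -0.26, which was not called.

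On a scale of normalized counts per kilobase of exon, the median subunit stood above the median Ndufaf gene in both groups, though the ranges overlapped. Exon length was that of all annotated exons of a gene, merged. Knockout levels ran from 17.2 to 3441 for subunits and from 134 to 268 for Ndufaf genes. The median subunit had a level of 1289 per kilobase in the knockout and 2676 in wild-type, and the median Ndufaf gene 171 in the knockout and 209 in wild-type. Wild-type levels ran from 60.5 (Ndufa4l2) to 9588 (Ndufa1) for subunits and from 154 (Ndufaf6) to 289 (Ndufaf5) for Ndufaf genes. Among the 38 subunits, the log2 difference had a Spearman correlation of -0.194 with the wild-type level per kilobase, -0.0369 with exon length and -0.401 with the log2 wild-type mean count, which is not per length. Without Ndufa4 and Ndufa4l2 these were -0.248, -0.0780 and -0.503. The genes share the same libraries, and the wild-type values enter both the level and the difference. Exons of 17 of the 45 genes overlap those of a gene on the opposite strand, and since strandedness is not stated, reads of such pairs cannot be told apart. The largest overlap was that of Ndufaf2, with 65.6% of its exon length shared with the long non-coding gene B230220B15Rik.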

How the data were processed

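RNA from laser-captured neck region of the corpus was sequenced in 3 Cldn18 knockout and 3 wild-type libraries, grouped by the sample labels. STAR, featureCounts, DESeq and mm10 are named in the submitters' processing notes, without roles or versions. Annotation and strandedness were not stated. The authors deposited normalized counts, a non-negative signal. Every value was a whole number of reads divided by 1 size factor per library (100% of values whole within 0.05 reads). The authors' deposited table of their own comparison, with group means, a fold change (ratio) and p-values, served as an alternative only.

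The test was limma 3.58.1 in R 4.3.3 (lmFit, eBayes with a mean trend) on log2(normalized count + 1). Two-sided p-values were adjusted by Benjamini-Hochberg over the 17432 genes that reached 10 or more in 3 or more of the 6 libraries. The pseudocount of 1 understates differences of low genes. The procedure was tested on simulated data. On the recovered reads, edgeR 4.0.16 with TMM called 3724 genes lower and 4323 higher, and DESeq2 1.42.0 was a further alternative.

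The 45 genes, the lists and the tests were chosen with earlier results of these data known. Named with values per library were the 5 largest and 3 smallest called decreases among subunits with groups that do not overlap, genes called higher, genes not called, every Ndufaf gene, nuclear core subunits, Ndufa4, Ndufa4l2 and a fixed set of genes outside the 45. The values of 1 subunit are not reported here, though counts and medians include it. Other genes were named after their values were seen. Symbols were matched to GENCODE vM21 (91.8% of rows) for coordinates in mm10 and exon lengths. Near copies were found among annotated pseudogene transcripts with blastn 2.17.0. Replicate numbers did not pair the libraries (correlation of deviations -0.00366, 0.0214 and -0.173 for numbers 1, 2 and 3).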

Additional observations from a re-analysis of the deposited data

How the results depend on the processing

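The subunit result kept its direction in every alternative tried. Subunits called lower numbered 34 to 37 of the 38, or of the 37 tested with a mean of at least 100 (35 lower) and the 36 without Ndufa4 and Ndufa4l2 (34 lower), in each alternative except the size threshold of 1 on the log2 scale, where 16 subunits, and 16 of all 45 genes, were counted, since that rule adds a condition. Of all tested genes, 9.28% to 25.8% were lower in these alternatives. Leaving out each library in turn gave 34 to 36 subunits lower and 34 to 37 of the 45 genes lower. Without wild-type libraries 2 and 3, added once the data had been seen, the median log2 difference was -1.18 for subunits and -0.42 for Ndufaf genes. That fit has 1 wild-type library and takes its spread from the knockout group. Of the 45 genes, 37 kept the same call in all 21 alternatives other than the size threshold.

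The Ndufaf result, 1 of 7 lower and 0 higher, depended on settings, and the cause was not tested. It was 0 lower with no filter, no mean trend, quantile normalization, the replicate block (which also gave 36 subunits lower), the size threshold and the authors' deposited table, 2 lower with a mean of at least 100, and 3 lower with upper quartile scaling. Leaving out single libraries gave 0 to 1 lower and 0 to 1 higher. Array weights gave 1 higher (Ndufaf4), which was then also 1 of the 45 genes. The median of all genes was 0.10 with quantile normalization and -0.15 with upper quartile scaling, against -0.02. Ndufs4 was called lower in both (adjusted p = 0.0295 and 0.0362). Ndufc2 was not called in the authors' deposited table (adjusted p = 0.151), and the range of its adjusted p was 0.00718 to 0.151.

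The differences of Ndufaf2, Ndufaf6 and Ndufaf4 changed sign in some alternatives. Ndufaf2, at 0.03, was -0.0022 with DESeq2, -0.0018 with quantile normalization, -0.11 with upper quartile scaling, -0.094 without wild-type libraries 2 and 3, and -0.035 to 0.092 when single libraries were left out. Ndufaf6, at -0.11, was 0.13 with quantile normalization, 0.71 without wild-type libraries 2 and 3, and -0.52 to 0.26 when single libraries were left out, 0.085 among them. Ndufaf4, at 0.38 the highest difference, was -0.067 without wild-type libraries 2 and 3, a fit that keeps only wild-type library 1. Low counts limit Ndufa4l2, which had 17 to 28 reads in the knockout libraries and 34 to 88 in the wild-type libraries.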
